A study of Mus musculus with 16 samples.

Results

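Border-associated macrophages are the resident macrophages of the brain's outer surfaces, namely the perivascular spaces, the meninges and the choroid plexus, while microglia are the macrophages of the tissue itself. Both depend on signalling through the receptor Csf1r and share a large set of macrophage genes, so that bulk tissue separates them only through the genes that border-associated macrophages carry and resting microglia largely lack. Border-associated macrophages are known for scavenging proteins from the blood and the cerebrospinal fluid and for sitting beside arterioles together with perivascular fibroblasts. The genes described here are 7 such markers, taken by exact symbol from a table of 54532 gene entries, and all 7 passed the filter on low counts that left 17736 genes. They are Mrc1 (CD206, a mannose receptor), Cd163 (the receptor for haptoglobin-bound haemoglobin), Stab1 (stabilin-1, a scavenger receptor), Lyve1 (a hyaluronan receptor), Pf4 (the chemokine CXCL4), F13a1 (the A subunit of coagulation factor XIII) and Cbr2 (a carbonyl reductase). The rule that picks them uses their names and no measured value, but the members were chosen with earlier results of these data known.

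RNA came from the brains of female mice at 9 months of age, in 4 groups of 4 libraries. Animals with Ch25h, the gene of the enzyme that turns cholesterol into 25-hydroxycholesterol, were either without (Ch25h+/+ Tau-) or with tau (Ch25h+/+ Tau+), and the same held for animals without it (Ch25h-/- Tau- and Ch25h-/- Tau+). On the tau status the labels name neither a transgene nor a promoter. The labels give frontal cortex as the tissue where the text of the series names hippocampus. Marker genes of cortex summed to 660 to 830 CPM and those of hippocampus to 150 to 288 CPM per library, CPM being counts scaled to the library size (TMM). The titles give each library an identifier of its own but do not say that the libraries came from separate animals, so p-values measure the spread between these libraries, which may be in part technical.

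Totals were 15530352 to 25602500 counts per library. Ch25h stood at 0.370 ± 0.144 CPM (SD, n = 4) in Ch25h+/+ Tau- and 0.963 ± 0.319 CPM (SD, n = 4) in Ch25h+/+ Tau+, and had 0 counts in all 8 Ch25h-/- libraries, as their labels state. The ribosomal transcript CT010467.1 lay at 2289 to 5684 CPM of the total count in 7 of the 8 Ch25h-/- libraries and at 111 to 475 in the other 9 libraries, among them Ch25h-/- Tau+ replicate 1. Comparisons across Ch25h genotype therefore cross that split of the libraries, while the tau effect in Ch25h+/+ lies within its rRNA-poor side. The tau effect in Ch25h-/- and the interaction also meet the split, through Ch25h-/- Tau+ replicate 1. Fits with the library class (rRNA-rich or rRNA-poor) as a covariate take the class term from that replicate against the rest of its group.

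The 7 genes lie on 7 chromosomes. In GRCm38 with the GENCODE M21 annotation, Mrc1 lies at chr2:14229392-14332057 (plus strand), Cd163 at chr6:124304656-124330527 (plus), Lyve1 at chr7:110850607-110863239 (minus), F13a1 at chr13:36867178-37050244 (minus), Pf4 at chr5:90772435-90773383 (plus), Stab1 at chr14:31139013-31168641 (minus) and Cbr2 at chr11:120729489-120732114 (minus). All are protein-coding. Exons of Stab1 share up to 112 bases with Nt5dc2 on the opposite strand, and those of F13a1 up to 60 bases with Gm30489, also on the opposite strand. Whether the counting used strand is not given in the sources used here, so the reads of those stretches cannot be assigned.

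The sequence before the start site is shown for 3 members that span the group, Pf4 with the largest fitted tau effect in Ch25h+/+, Stab1 with the highest level, and the receptor Cd163. Each is the 250 bases before the annotated start, 5′ to 3′ on the gene's strand, from RefSeq promoters in GRCm38.p6, which held entries for 6 of the 7 members. Capitals mark a match to the core of the PU.1 site, GAGGAAGT or its reverse complement ACTTCCTC, PU.1 being the macrophage transcription factor encoded by Spi1.
Pf4, chr5:90772185-90772434, plus strand: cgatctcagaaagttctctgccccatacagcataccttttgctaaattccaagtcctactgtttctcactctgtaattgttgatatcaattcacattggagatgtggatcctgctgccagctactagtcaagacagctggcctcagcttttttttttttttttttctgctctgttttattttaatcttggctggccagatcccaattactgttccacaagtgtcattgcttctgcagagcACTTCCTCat
Stab1, chr14:31168642-31168891, minus strand: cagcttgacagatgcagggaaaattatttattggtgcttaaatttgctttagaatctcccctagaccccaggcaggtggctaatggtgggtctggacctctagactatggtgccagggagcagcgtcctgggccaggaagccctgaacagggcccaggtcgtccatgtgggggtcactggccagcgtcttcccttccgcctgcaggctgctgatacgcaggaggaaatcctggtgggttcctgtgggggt
Cd163, chr6:124304401-124304650, plus strand: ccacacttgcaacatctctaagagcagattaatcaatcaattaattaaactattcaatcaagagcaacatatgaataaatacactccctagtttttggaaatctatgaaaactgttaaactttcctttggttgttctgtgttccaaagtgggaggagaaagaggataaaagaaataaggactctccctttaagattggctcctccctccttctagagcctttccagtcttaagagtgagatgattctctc
The Pf4 match lies on the reverse strand and begins 10 bases before the start. It was the single match among 7 member promoter windows (F13a1 has 2 starts in the table), where 2.44% of 32851 windows of that length held the core on either strand. The MAF site TGCTGAC was in 0 of 7 member windows and in 3.81% of all, the interferon response motif, GAAA followed after 2 bases by a further GAAA, was in 0 of 7 and in 2.98% of all, and the E-box CANNTG was in 7 of 7 and in 66.2% of all. These are letter matches in a short window and do not show binding.

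All 7 genes had counts in all 16 libraries, from 5 counts of Pf4 to 764 of Stab1. Per kilobase of exon, Stab1 was the most abundant at a mean of 2.46 CPM per kb over the 16 libraries. Pf4 followed at 1.41 and Cbr2 at 0.920 CPM per kb, then Mrc1 at 0.780, Cd163 at 0.385, F13a1 at 0.348 and Lyve1 at 0.319. The low members were measured with few reads: the mean count per library was 18.2 for Lyve1, 19.3 for Pf4 and 23.9 for Cbr2, against 492 for Stab1. Within groups the coefficient of variation of Stab1 was 12.5% to 19.7%, where counting alone would give 3.94% to 5.28%, and that of Pf4 was 26.6% to 69.3%, where counting alone would give 18.9% to 28.3%.

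Among the receptors, Mrc1 stood at 4.20, 7.60, 4.27 and 1.41 CPM in Ch25h+/+ Tau- replicates 1 to 4, and at 9.42, 6.27, 4.42 and 5.79 CPM in Ch25h+/+ Tau+. It stood at 6.26, 3.59, 3.01 and 2.79 CPM in Ch25h-/- Tau- and at 6.46, 5.39, 4.72 and 3.93 CPM in Ch25h-/- Tau+. The 4 groups overlapped, the lowest library was Ch25h+/+ Tau- replicate 4 and the highest Ch25h+/+ Tau+ replicate 1. Group means ran from 3.91 ± 1.60 CPM (SD, n = 4) in Ch25h-/- Tau- through 4.37 ± 2.53 (Ch25h+/+ Tau-) and 5.12 ± 1.07 (Ch25h-/- Tau+) to 6.47 ± 2.12 (Ch25h+/+ Tau+), and the ranges of neighbours in that order overlapped.

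Cd163, which clears haemoglobin released from red cells, stood at 1.62, 2.02, 2.33 and 1.06 CPM in Ch25h+/+ Tau- and at 2.03, 3.70, 2.88 and 2.71 CPM in Ch25h+/+ Tau+. In Ch25h-/- it stood at 2.53, 1.71, 1.33 and 2.68 CPM in Tau- and at 2.07, 1.82, 1.70 and 1.44 CPM in Tau+. In Ch25h+/+ 3 of the 4 Tau+ libraries lay above the highest Tau- library, and in Ch25h-/- none of the 4 did. The Ch25h+/+ Tau+ mean of 2.83 ± 0.687 CPM (SD, n = 4) was the highest of the groups, and the others were 1.76 ± 0.550 in Ch25h+/+ Tau-, 1.76 ± 0.264 in Ch25h-/- Tau+ and 2.06 ± 0.650 in Ch25h-/- Tau-.

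Stab1, an endocytic receptor for modified lipoproteins and matrix proteins, had the smallest range over all 16 libraries, the highest being 1.97 times the lowest. It stood at 22.3, 29.8, 20.4 and 23.8 CPM in Ch25h+/+ Tau- and at 36.3, 32.1, 26.9 and 30.3 CPM in Ch25h+/+ Tau+. It stood at 27.3, 20, 18.7 and 18.5 CPM in Ch25h-/- Tau- and at 29.8, 21.6, 26.0 and 20.7 CPM in Ch25h-/- Tau+. All but 1 of the Ch25h+/+ Tau+ libraries lay above every Ch25h+/+ Tau- library, and the means were 31.4 ± 3.92 CPM (SD, n = 4) and 24.1 ± 4.05. The Ch25h-/- means were 24.5 ± 4.19 CPM in Tau+ and 21.1 ± 4.16 in Tau-.

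Lyve1, shared with lymphatic endothelium, did not separate any groups. Its means were 0.876 ± 0.252 CPM (SD, n = 4) in Ch25h+/+ Tau-, 0.997 ± 0.437 in Ch25h+/+ Tau+, 0.860 ± 0.383 in Ch25h-/- Tau- and 0.995 ± 0.253 in Ch25h-/- Tau+. The single libraries ran from 0.372 CPM in Ch25h+/+ Tau+ replicate 3 to 1.39 CPM in replicate 2 of the same group. Prox1 is also listed for hippocampus, so the 4 listed genes of lymphatic endothelium do not measure that cell type alone. Of the 4, Ccl21a had 0 to 2 counts per library, while Prox1 had 179 to 450, Pdpn 83 to 358 and Flt4 53 to 148. They summed to 21.7 to 27.0 CPM in Ch25h+/+ Tau- and 26.1 to 41.1 CPM in Ch25h+/+ Tau+, where Pdpn rose (log2 0.84, SE 0.19; adjusted p = 0.0281 by edgeR's quasi-likelihood test), and their part in the Lyve1 values was not tested.

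The secreted members were Pf4 and F13a1, which platelets and their precursors also make. Pf4 stood at 0.462, 0.820, 0.647 and 0.504 CPM in Ch25h+/+ Tau- and at 2.22, 1.01, 0.651 and 1.77 CPM in Ch25h+/+ Tau+. In Ch25h-/- it stood at 1.45, 0.294, 0.422 and 1.39 CPM in Tau- and at 1.10, 1.82, 1.14 and 0.625 CPM in Tau+. Replicate 3 of Ch25h+/+ Tau+ lay among the Tau- libraries and the other 3 above them, and the Ch25h-/- Tau- libraries fell into a high and a low pair. The means were 0.608 ± 0.162 CPM (SD, n = 4), 1.41 ± 0.712, 0.889 ± 0.616 and 1.17 ± 0.492 in that order of groups.

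F13a1 stood at 1.85, 1.91, 3.11 and 1.36 CPM in Ch25h+/+ Tau- and at 4.19, 3.74, 1.72 and 3.31 CPM in Ch25h+/+ Tau+. In Ch25h-/- it stood at 3.55, 1.35, 1.21 and 1.62 CPM in Tau- and at 2.90, 2.73, 1.99 and 0.937 CPM in Tau+. As with Pf4, replicate 3 was the low library of Ch25h+/+ Tau+ and replicate 1 the high library of Ch25h-/- Tau-. Of the 9 listed platelet genes, Ppbp, Gp1bb, Gp6 and Tubb1 had at most 3 counts in any library, Gp9 and Treml1 at most 11, and Itga2b had 31 to 99, Gp5 10 to 44 and Gp1ba 13 to 26. They summed to 6.50 to 7.58 CPM in Ch25h+/+ Tau- and 5.89 to 8.50 CPM in Ch25h+/+ Tau+, and to 5.12 to 7.05 CPM and 5.34 to 6.14 CPM in Ch25h-/- Tau- and Tau+. The 8 listed monocyte genes summed to 10.9 to 19.7 CPM over all libraries, with Vcan at 138 to 325 counts, Itgal at 23 to 78 and Ccr2 at 0 to 13, and S100a4 and Plac8 at most 3. Vcan alone stood at 8.50 to 16.5 CPM, so that sum largely follows Vcan and does not give a level of monocytes. None of the 3 tested platelet genes and 3 tested monocyte genes passed the threshold by edgeR with tau in either genotype, and their part in the values of Pf4 and F13a1 was not tested.

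Cbr2, the enzyme of the set, stood at 0.832, 0.985, 0.906 and 0.705 CPM in Ch25h+/+ Tau- and at 1.60, 1.56, 1.53 and 2.38 CPM in Ch25h+/+ Tau+. In Ch25h-/- it stood at 1.51, 0.765, 0.603 and 2.29 CPM in Tau- and at 1.25, 0.975, 1.08 and 0.562 CPM in Tau+. It was the member for which every Ch25h+/+ Tau+ library lay above every Ch25h+/+ Tau- library and also above every Ch25h-/- Tau+ library, and no other member had such a gap in either comparison. Of all genes tested, 3.89% had the first gap and 5.74% the second, and both use the same Ch25h+/+ Tau+ libraries. The means were 0.857 ± 0.119 CPM (SD, n = 4), 1.77 ± 0.409, 1.29 ± 0.772 and 0.967 ± 0.293 in that order of groups.

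**Figure D1:**
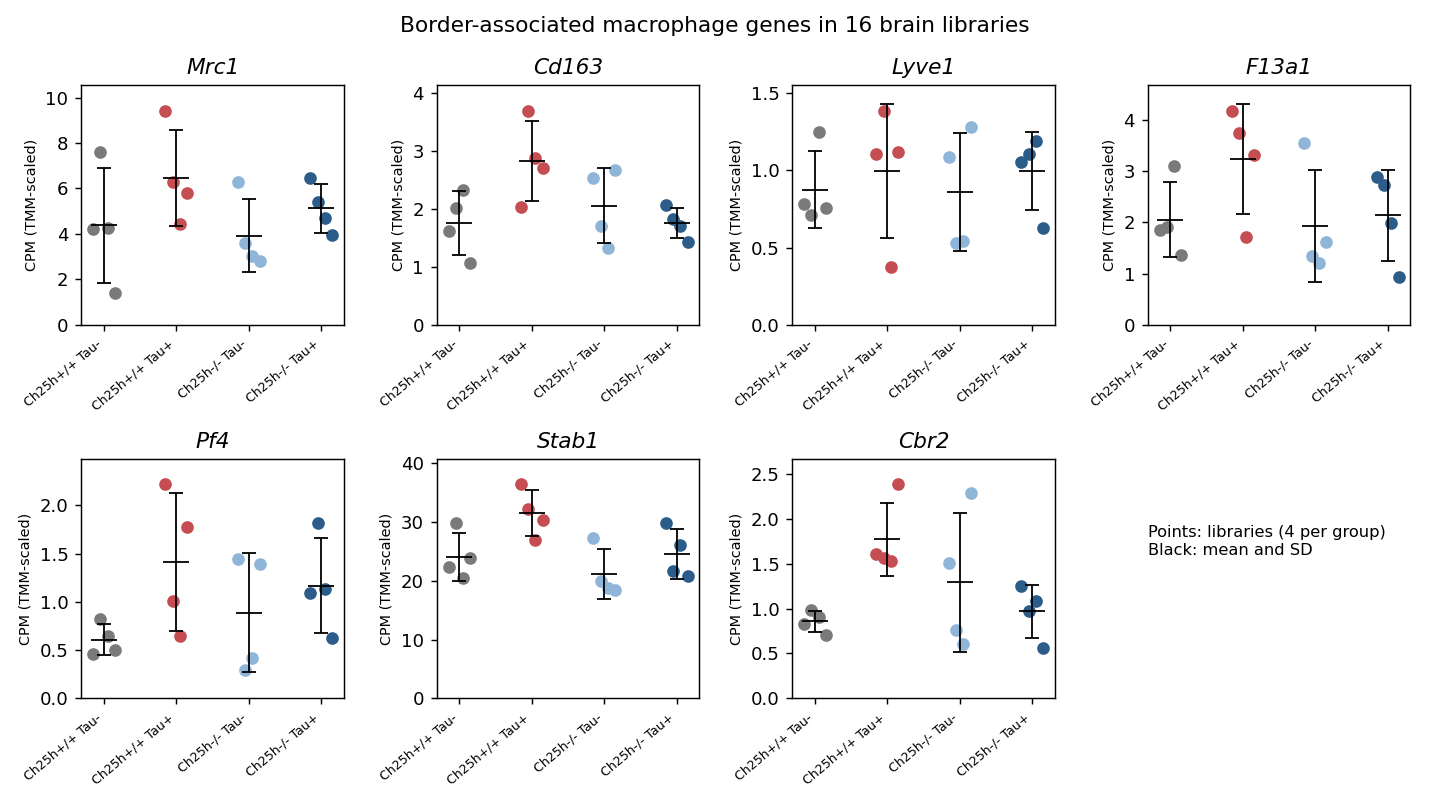
CPM (TMM-scaled library sizes, vertical axis) of the 7 genes in the 4 groups (horizontal axis), with points for single libraries (4 per group) and black bars for the mean and SD. All 7 genes have their highest group mean in Ch25h+/+ Tau+, and in Ch25h+/+ the Tau- and Tau+ libraries overlap in every gene except Cbr2, whose lowest Ch25h+/+ Tau+ library (1.53 CPM) lies above the highest Ch25h+/+ Tau- library (0.985 CPM). Of all genes tested, 3.89% have the same gap.

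The first comparison asked how the genes changed with tau in animals with Ch25h. All 7 were higher in Ch25h+/+ Tau+ than in Ch25h+/+ Tau-, with a median log2 fold change of 0.64 beside -0.01 over all genes tested, and 47.8% of all genes tested were higher. The 7 genes varied together within groups, as described below. Here and in the later comparisons, members that share a direction are therefore not independent observations. None of the 7 passed an adjusted p of 0.05 (edgeR's quasi-likelihood test with Benjamini-Hochberg adjustment over all genes), a threshold passed by 1.56% of genes. DESeq2, which called 2.39% of genes, and limma-voom, which called 2.81%, also called 0 of 7. At an unadjusted p below 0.05 edgeR found 4 of 7 (Cbr2, Cd163, Stab1 and Pf4), DESeq2 4 and limma-voom 3, where 9.38% of all genes passed by edgeR. Genes of other cells moved in the same comparison. The 15 listed genes of disease-associated microglia summed to 216 to 271 CPM in Tau- and 341 to 525 CPM in Tau+, and 10 of them rose. The 8 mural cell genes summed to 161 to 211 CPM and 240 to 271 CPM, and 1 of the 7 tested rose (Vtn, log2 0.51, SE 0.12; adjusted p = 0.0344 by edgeR's quasi-likelihood test). The part of these 2 lists in the values of the 7 genes was not tested. The 11 fibroblast genes summed to 105 to 193 CPM and 182 to 313 CPM. With their score as a covariate in the fit the median of the 7 genes was 0.10, with 4 of 7 above 0, and with the homeostatic microglia score it was 0.46, with 6 of 7. The genes of both scores were mostly higher with tau themselves, so these fits cannot separate the scores from tau. In bulk tissue a change of the 7 genes could be more cells or more RNA per cell, which cannot be told apart.

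The largest fitted change was that of Pf4, at 2.29-fold (95% interval 1.14 to 4.58; log2 1.19, SE 0.48; adjusted p = 0.379 by edgeR's quasi-likelihood test). Cbr2 followed at 2.06-fold (1.24 to 3.43; log2 1.04, SE 0.35; adjusted p = 0.228 by the same edgeR test), and 3.89% of all genes tested likewise had every Tau+ library above every Tau- library. Cd163 was fitted at 1.61-fold (1.10 to 2.37; adjusted p = 0.343 by edgeR). F13a1 was at 1.56-fold (0.909 to 2.68) and Mrc1 at 1.48-fold (0.881 to 2.48). Stab1 was at 1.31-fold (1.05 to 1.62; adjusted p = 0.344 by edgeR). The smallest value was that of Lyve1, at 1.13-fold (0.651 to 1.96). The intervals of Pf4, Cbr2, Cd163 and Stab1 lie above 1 one gene at a time, without adjustment for the number of genes.

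In Ch25h-/- the median log2 fold change with tau was 0.21, 5 of 7 genes were higher (52.8% of all genes tested), and the range ran from -0.40 for Cbr2 to 0.40 for Mrc1. Without each library in turn the median of the members ran from 0.03 (without Ch25h-/- Tau- replicate 2) to 0.37 (without Ch25h-/- Tau+ replicate 4). It was 0.11 with the library class as a covariate (4 of 7 above 0), 0.05 with the microglia score (4 of 7), 0.12 with the blood score (5 of 7) and -0.15 with the fibroblast score (1 of 7). None of the 7 passed the threshold by edgeR, DESeq2 or limma-voom, and none had an unadjusted p below 0.05 by any of them. Of all genes edgeR called 0.0395%, DESeq2 0.079% and limma-voom 0.0338%, and 3.68% had an unadjusted p below 0.05 by edgeR. Pf4 was fitted at 1.30-fold with an interval from 0.651 to 2.61, so a change as large as the Ch25h+/+ estimate lies inside it. The interval of Cbr2, 0.448 to 1.28, leaves out its Ch25h+/+ estimate of 2.06-fold, and that of Cd163, 0.575 to 1.28, leaves out its estimate of 1.61-fold.

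The difference between the tau effects was itself tested as an interaction. It was negative for 6 of 7 genes, where 53.7% of all genes were above 0, with a median of -0.48 on the log2 scale beside 0.02 for all genes tested, and none passed the threshold by edgeR, DESeq2 or limma-voom, where edgeR and limma-voom each called 0.0338% of all genes and DESeq2 0.31%. At an unadjusted p below 0.05 each tool found 2 genes, and 4.13% of all genes were past it by edgeR. Cbr2 was at -1.44 (SE 0.50, 95% interval -2.50 to -0.38; adjusted p = 0.758 by edgeR's quasi-likelihood test) and Cd163 at -0.91 (SE 0.38, interval -1.71 to -0.11; adjusted p = 1.0 by the same test). Lyve1 was at 0.03 (SE 0.54). Leaving out each library in turn moved the median of the 7 members from -0.77 (without Ch25h+/+ Tau- replicate 3) to -0.03 (without Ch25h-/- Tau- replicate 1), and it was -0.25 without Ch25h-/- Tau+ replicate 4. With the fibroblast score as a covariate the median was -0.07, with the microglia score -0.22 and with the library class -0.68. A difference between the tau effects was therefore not shown for any of the 7 after adjustment.

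The loss of Ch25h was compared within each tau status. Without tau, 3 genes were higher and 4 lower in Ch25h-/- than in Ch25h+/+ (median log2 -0.03, with 51.4% of all genes higher), from -0.19 for Stab1 to 0.59 for Cbr2, and edgeR called 0 of 7 against 1.03% of all genes. DESeq2 (10% called of the 11200 genes to which its own filter left an adjusted p) and limma-voom (7.83% of all genes) also called 0. DESeq2's filter left an adjusted p for 1 of the 7. None had an unadjusted p below 0.05 by any of the 3 tools, where 20.9% of all genes did by edgeR. With the library class (rRNA-rich or rRNA-poor) as a covariate all 7 were above 0 (median 0.43, range 0.08 to 1.11), and with the fibroblast or the microglia score 5 of 7 were. In Tau- the class follows Ch25h genotype fully, so the class fit shifts these values by the offset of Ch25h-/- Tau+ replicate 1 from its group. That replicate was the highest of its group for 5 of the 7 members. In Tau+ animals 6 of 7 genes were lower in Ch25h-/-, with a median log2 of -0.35, and 50.7% of all genes tested were higher. The median was -0.16 with the library class (2 of 7 above 0), -0.15 with the fibroblast score (3 of 7) and -0.21 with the microglia score (2 of 7). The fibroblast genes summed to 182 to 313 CPM in Ch25h+/+ Tau+ and 178 to 197 CPM in Ch25h-/- Tau+. None of the 7 passed the threshold by edgeR, DESeq2 or limma-voom, where edgeR called 3.55% and limma-voom 10.6% of all genes. DESeq2 called 9.54% of the 15668 genes to which it gave an adjusted p.

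At an unadjusted p below 0.05 each tool found 3 members in that comparison, and 23.9% of all genes were past it by edgeR. Cbr2 was at 0.556-fold (95% interval 0.334 to 0.924; adjusted p = 0.152 by edgeR's quasi-likelihood test), with all 4 Ch25h-/- Tau+ libraries below all 4 Ch25h+/+ Tau+ libraries, as for 5.74% of all genes. Cd163 was at 0.622-fold (0.422 to 0.917; adjusted p = 0.130 by edgeR) and Stab1 at 0.784-fold (0.632 to 0.972; adjusted p = 0.159 by edgeR). F13a1 was at 0.669-fold (0.389 to 1.15), Mrc1 at 0.799-fold (0.477 to 1.34), Pf4 at 0.836-fold (0.432 to 1.61) and Lyve1 at 1.0-fold (0.581 to 1.72). This comparison and the tau comparison in Ch25h+/+ share the Ch25h+/+ Tau+ libraries, so their opposite directions do not support each other. Without each library in turn the median of the members ran from -0.55 (without Ch25h-/- Tau+ replicate 2) to -0.28 for Ch25h loss in Tau+, and from -0.16 (without Ch25h-/- Tau- replicate 1) to 0.24 (without Ch25h+/+ Tau- replicate 2) for Ch25h loss in Tau-.

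**Figure D2:**
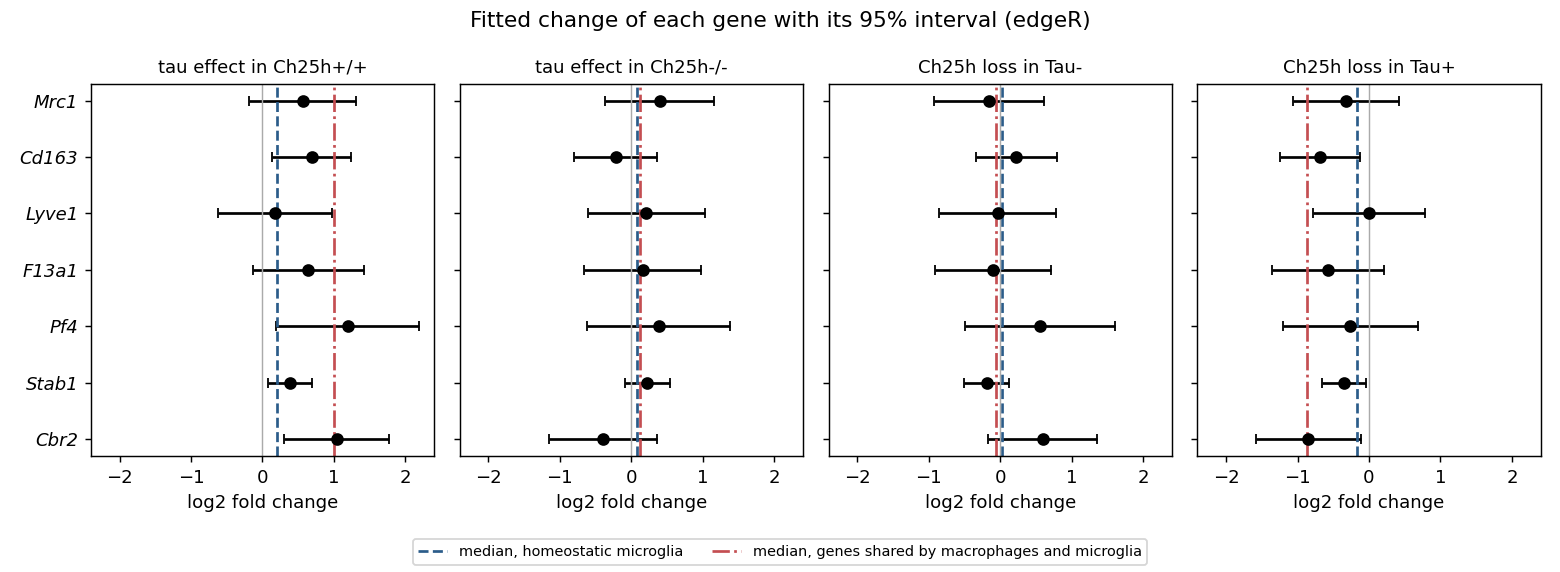
Fitted log2 fold change (horizontal axis, with 95% interval) of each of the 7 genes (vertical axis) in 4 comparisons, with lines for the median of the homeostatic microglia genes and of the genes shared by macrophages and microglia. In the tau comparison in Ch25h+/+ the medians are 0.64 for the 7 genes, 0.20 for homeostatic microglia genes and 1.0 for shared genes.

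Averaged over both Ch25h genotypes, the tau effect was positive for all 7 genes (median log2 0.32, where 49.6% of all genes tested were higher). With the fibroblast score as a covariate 4 of 7 were above 0 (median 0.00, minimum -0.26), and with the microglia score 6 of 7 (median 0.09). Members called were 0 of 7 by edgeR, DESeq2 and limma-voom, against 0.857%, 1.65% and 1.45% of all genes. An unadjusted p below 0.05 was found for 2 members by each tool and for 9.85% of all genes by edgeR, Stab1 at 0.30 (SE 0.11; adjusted p = 0.264 by edgeR's quasi-likelihood test) and Pf4 at 0.79 (SE 0.34; adjusted p = 0.427 by the same test). Averaged over tau status, Stab1 was the member closest to the threshold for Ch25h loss, at 0.830-fold (95% interval 0.712 to 0.967; adjusted p = 0.0764 by edgeR's quasi-likelihood test). By edgeR 0 of 7 members were called and 1 had an unadjusted p below 0.05, while DESeq2 and limma-voom each called Stab1, at adjusted p of 0.0471 and 0.0367. DESeq2's own filter left an adjusted p for 5 of the 7. Of all genes, edgeR called 20.3% and limma-voom 25.7% for that average, and 35.1% had an unadjusted p below 0.05 by edgeR. DESeq2 called 27.5% of the 15325 genes to which it gave an adjusted p. Of the 7 members 6 were lower (median -0.23), where 50.7% of all genes were higher. That direction was lost with the library class as a covariate, where all 7 were above 0 (0.04 to 0.31, median 0.08), and with the microglia score, where 4 of 7 were; with the fibroblast score 3 of 7 were. Without each library in turn the median of the members ran from -0.29 to -0.10 (without Ch25h+/+ Tau- replicate 2). With the rRNA class of the library as a covariate, Stab1 changed sign to a log2 of 0.06. In that fit the class is informed by Ch25h-/- Tau+ alone, the group that holds libraries of both classes, through its replicate 1.

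Microglia were measured by 13 homeostatic genes, such as P2ry12 and Tmem119, and by 14 genes that border-associated macrophages share with microglia. With tau in Ch25h+/+, 10 of the 14 shared genes rose and none fell, with a median log2 of 1.0. C1qa, the complement subunit, went from 45.9 ± 5.52 to 117 ± 23.0 CPM (SD, n = 4 each; adjusted p = 2.72e-05 by edgeR's quasi-likelihood test). Tyrobp, an adaptor of myeloid receptors, went from 7.33 ± 0.436 to 19.1 ± 4.29 CPM (adjusted p = 6.52e-05 by edgeR), and C1qb from 34.9 ± 3.67 to 76.0 ± 5.48 CPM (adjusted p = 7.68e-05 by edgeR). Of the 13 homeostatic genes 2 rose, Cx3cr1 among them, and none fell (median log2 0.20). Leaving out each library in turn kept the number of shared genes that rose at 10, and that of homeostatic genes ran from 1 to 3. It was 1 without replicate 3 or 4 of Ch25h+/+ Tau+ or replicate 1, 2 or 4 of Ch25h+/+ Tau-, and 3 without replicate 1 of Ch25h-/- Tau+.

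In Ch25h-/- 0 of the 14 shared genes and 0 of the 13 homeostatic genes passed in the tau comparison by edgeR, with medians of 0.12 and 0.08. In Tau+ animals 10 of the 14 shared genes fell with Ch25h loss (median -0.87), and 4 homeostatic genes fell (median -0.16), a number that ran from 0 to 4 without each library in turn and 0 without Ch25h+/+ Tau+ replicate 4. Of the shared genes C1qa passed the interaction, at -1.26 (SE 0.20; adjusted p = 0.0222 by edgeR's quasi-likelihood test), and that call was lost in 7 of 16 fits that each left out 1 library. Among the shared genes Spi1, which encodes PU.1, was at 8.86 ± 1.36 CPM in Ch25h+/+ Tau+ and 3.75 ± 0.281 CPM in Ch25h-/- Tau+ (SD, n = 4 each; adjusted p = 0.000117 by edgeR), a call lost with the library class as a covariate (adjusted p = 0.0721 by edgeR). That class fit rests on Ch25h-/- Tau+ replicate 1.

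The members were then set against microglia within each library, as log2(CPM + 0.5) of the member minus the mean of the 13 homeostatic genes. Between Ch25h+/+ Tau- and Ch25h+/+ Tau+ the group mean of that difference moved by 0.58 for Cbr2, 0.57 for Pf4, 0.49 for Mrc1, 0.42 for Cd163, 0.38 for F13a1, 0.23 for Stab1 and -0.07 for Lyve1, a description with no test. The spread between libraries was as large for most: Mrc1 went from -2.15 ± 0.85 to -1.66 ± 0.43 (SD, n = 4 each), while Cbr2 went from -3.82 ± 0.13 to -3.25 ± 0.16. The values depended on the reference. Against a smaller reference of 3 microglia genes they were 0.16 for Cbr2, 0.15 for Pf4, 0.07 for Mrc1, 0.00 for Cd163, -0.03 for F13a1, -0.19 for Stab1 and -0.49 for Lyve1. In Ch25h-/- the change with tau was 0.32 for Mrc1, 0.27 for Pf4 and -0.28 for Cbr2 against the 13 genes.

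Of 25 other genes known from border-associated macrophages, 16 were tested. With tau in Ch25h+/+ 15 of the 16 were higher (median log2 0.43) and 1 passed, Ms4a7, a membrane protein of these macrophages. It went from 0.293 ± 0.152 to 1.08 ± 0.166 CPM (SD, n = 4 each; log2 1.83, SE 0.35; adjusted p = 0.00808 by edgeR's quasi-likelihood test), from no more than 26 counts in any library. Its call was lost with the fibroblast score (adjusted p = 0.210 by edgeR) or the microglia score (adjusted p = 0.458 by edgeR) as a covariate, scores whose genes were themselves mostly higher with tau. In Ch25h-/- 0 of the 16 passed by edgeR (median 0.18), and Ms4a7 was at 0.322 ± 0.109 CPM in Tau- and 0.413 ± 0.0874 CPM in Tau+. In Tau+ animals Ms4a7 was the 1 gene of the list that passed with Ch25h loss (log2 -1.39, SE 0.35; adjusted p = 0.0370 by edgeR), a call lost in 6 of 16 fits without 1 library and with the library class as a covariate (adjusted p = 0.769 by edgeR). That class fit rests on Ch25h-/- Tau+ replicate 1. Mean levels of Siglec1, the sialic acid receptor CD169, were 0.402 and 1.37 CPM in Ch25h+/+ Tau- and Tau+, and 0.132 and 0.531 CPM in Ch25h-/-, and it passed for the mean tau effect (log2 1.89, SE 0.36; adjusted p = 0.0127 by edgeR) and for mean Ch25h loss (log2 -1.41, SE 0.37; adjusted p = 0.0140 by edgeR). Siglec1 had at most 36 counts in any library, and at most 3 in Ch25h-/- Tau-. For mean Ch25h loss, which crosses the split of the libraries by rRNA class, edgeR called 20.3% of all genes.

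Macrophage growth factors and their receptors, the signals on which these cells depend, were 12 genes of which 9 were tested. With tau in Ch25h+/+ 5 rose and none fell (Csf1, Csf1r, Tgfb1, Il10ra and Csf2rb). Csf1, a ligand of Csf1r, went from 23.2 ± 1.44 to 38.1 ± 5.61 CPM (SD, n = 4 each; adjusted p = 0.000348 by edgeR's quasi-likelihood test), and Csf1r from 92.5 ± 4.46 to 131 ± 9.50 CPM (adjusted p = 0.00153 by edgeR). In Ch25h-/- 0 of the 9 passed with tau by edgeR. In Tau+ animals 3 fell (Csf1, Csf1r and Tgfb1) and 1 rose (Il4) with Ch25h loss. In Tau- animals 1 of the 9 rose and none fell with Ch25h loss. Both comparisons cross the split of the libraries by rRNA class. Csf1r is also among the 14 shared genes. Scavenger receptors and haem handling genes, the partners of Cd163 and Stab1, had 0 of 10 tested genes past the threshold with tau in either genotype by edgeR. With Ch25h loss in Tau+ 2 of the 10 fell, Hmox1 (log2 -0.69, SE 0.17; adjusted p = 0.0366 by edgeR), which degrades haem, and Ftl1 (log2 -0.48, SE 0.10; adjusted p = 0.0209 by edgeR), which stores iron.

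Within groups the 7 genes varied together. After the group means of log2(CPM + 0.5) were subtracted, all 21 pairs of members had a positive Pearson r over the 16 libraries, from 0.15 for Cd163 with Stab1 to 0.78 for Lyve1 with F13a1, with a median of 0.53. Libraries were high or low in several members at once: Ch25h+/+ Tau+ replicate 3 was the lowest of its group for 6 of 7 members, Ch25h-/- Tau+ replicate 4 the lowest for all 7, and Ch25h-/- Tau+ replicate 1 the highest for 5. The values of a library share its total and its dissection, and the mean z score of the members had an r of 0.14 with log2 total counts. For single members that r ran from -0.27 for Pf4 to 0.52 for Cd163.

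**Figure D3:**
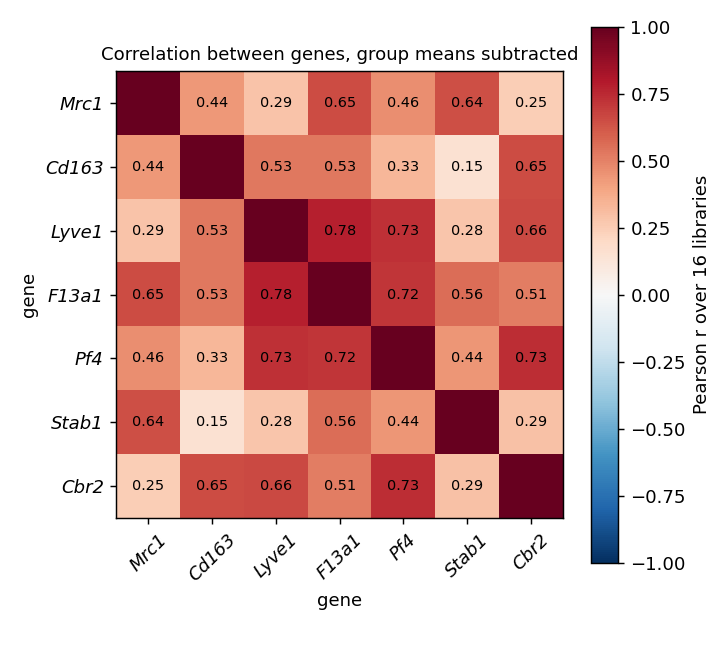
Pearson r between the 7 genes (both axes) over 16 libraries, computed on log2(CPM + 0.5) after subtracting each group's mean, with colour from -1 to 1. All 21 pairs are above 0, the lowest being Cd163 with Stab1 (0.15) and the highest Lyve1 with F13a1 (0.78).

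The genes whose spread within groups was most like that of the members were ranked by r with the members' mean z score, among 15713 genes. The 8 at the top were Slc13a3 (r 0.94), a dicarboxylate transporter, Prdm6 (0.90), Prg4 (0.90), the lubricin of connective tissue surfaces, Gaa (0.89), Slc22a6 (0.89), an organic anion transporter of the fibroblast list, Chid1 (0.88), Anpep (0.87) and Crabp2 (0.86). All 11 listed fibroblast genes had a positive r, with a median of 0.72 and a median rank of 116, while the median over all ranked genes was 0.00. The 14 genes shared by macrophages and microglia had a median of 0.12, the 13 homeostatic genes 0.14 and the 10 ranked other border-associated macrophage genes 0.07, with 5 of the 10 above 0. Those 10 ran from -0.53 to 0.75 (Cd209f). The floor of a mean log2 CPM of 0 left 10 of the 25 listed, without low genes such as Ms4a7 and Siglec1. The score of that list, given below, uses all 25, so the 2 values cover different genes. The single most similar gene was H2-Q1 for Mrc1 (r 0.91), Pabpc4 for Cd163 (0.94), Gaa for Lyve1 (0.87), Srsf3 for F13a1 (0.88), Smyd4 for Pf4 (0.84), Aoc2 for Stab1 (0.90) and Fcrls for Cbr2 (0.91). These are descriptions over 16 libraries, chosen as maxima over many genes.

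As lists, the members' mean z score had an r of 0.78 (Spearman's rho 0.56) with the fibroblast score, the mean log2(CPM + 0.5) of its genes, and of 0.65 without the 2 libraries farthest from the median fibroblast score. It was 0.95 over the 9 rRNA-poor and 0.72 over the 7 rRNA-rich libraries, with group means subtracted within each class, with rho of 0.93 and 0.54. Leaving out each group of 4 gave 0.75 (without Ch25h+/+ Tau-), 0.73 (Ch25h+/+ Tau+), 0.69 (Ch25h-/- Tau-) and 0.91 (Ch25h-/- Tau+), with rho from 0.41 to 0.85. The r was 0.71 with the other border-associated macrophage genes, 0.38 with the shared genes, 0.38 with the homeostatic genes, 0.45 with blood genes, -0.42 with mural cell genes and -0.22 with choroid plexus genes. Without the 2 libraries farthest from the median of each score these were 0.54, 0.40, 0.35, 0.21, -0.58 and -0.20. The r was 0.46 with the macrophage growth factors and 0.43 with neutrophil genes, and 0.66 and 0.52 without the 2 farthest libraries, so the trimmed value for the growth factors was as high as that for fibroblasts. The other 9 lists ran from -0.34 to 0.21, and from -0.28 to 0.34 when trimmed. With blood genes, single members ran from an r of 0.01 for Cbr2 to 0.72 for Stab1, with Mrc1 at 0.71. When trimmed, Mrc1 was at 0.63 and Stab1 at 0.61.

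**Figure D4:**
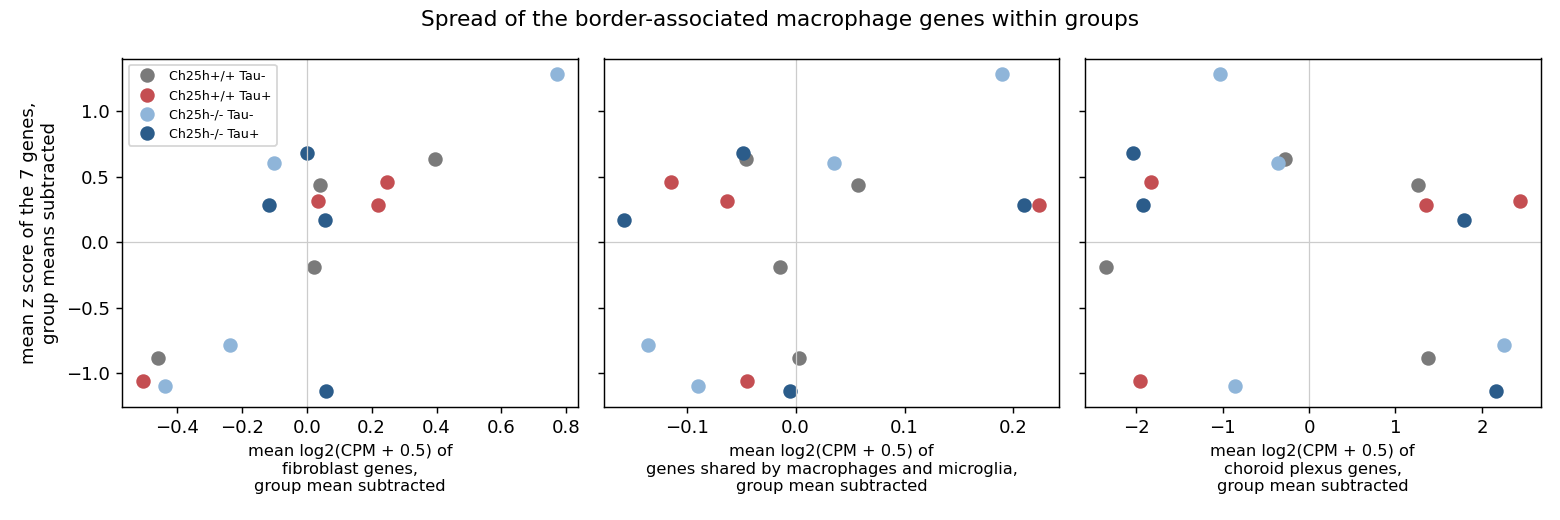
Mean z score of the 7 genes (vertical axis) against the mean log2(CPM + 0.5) of fibroblast, shared macrophage and microglia, and choroid plexus genes (horizontal axes), 1 point per library (16), with group means subtracted on both axes and colours for the groups. Libraries high in fibroblast genes are high in the members (r 0.78), with Ch25h-/- Tau+ replicate 4 off that trend, while r is 0.38 for shared and -0.22 for choroid plexus genes.

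The 11 fibroblast genes, all tested, summed to 105 to 193 CPM in Ch25h+/+ Tau- and 182 to 313 CPM in Ch25h+/+ Tau+, and to 103 to 245 CPM in Ch25h-/- Tau- and 178 to 197 CPM in Ch25h-/- Tau+. With tau in Ch25h+/+ 10 of the 11 were higher (median log2 0.84) and 1 passed, Fmod, a proteoglycan of connective tissue, from 30.3 ± 8.59 to 68.3 ± 17.5 CPM (SD, n = 4 each; adjusted p = 0.0303 by edgeR's quasi-likelihood test). That number ran from 0 to 3 when each library was left out in turn. Choroid plexus genes summed to 18.2 to 2857 CPM per library, with a wide overlap between groups.

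With the fibroblast score as a covariate in the fit, the tau effects in Ch25h+/+ moved for each of the 7 genes. Mrc1 moved from 0.56 to -0.22 (95% interval -0.85 to 0.40), F13a1 from 0.64 to -0.19 and Lyve1 from 0.18 to -0.39. Pf4 moved from 1.19 to 0.26 (-0.86 to 1.37) and Stab1 from 0.39 to 0.10 (-0.22 to 0.41). Cbr2 moved from 1.04 to 0.65 (-0.25 to 1.55), the highest of the 7 in this fit, and Cd163 was at 0.42 (-0.24 to 1.08). The median of the shared genes in the same fit was 0.82, with 7 of 14 past the threshold. With the homeostatic microglia score in its place, the tau effects in Ch25h+/+ ran from -0.28 for Lyve1 to 0.60 for Cbr2 (median 0.46, 6 of 7 above 0). Pf4 was then at 0.33 and F13a1 at 0.15, while Mrc1 was at 0.46, Cd163 at 0.49 and Stab1 at 0.49. Fibroblast genes were themselves higher with tau in Ch25h+/+ (median log2 0.84), and so were homeostatic microglia genes (0.20). A fit with either score therefore cannot separate that score from tau. The part of the fibroblast values in the differences between groups was not tested.

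**Figure D5:**
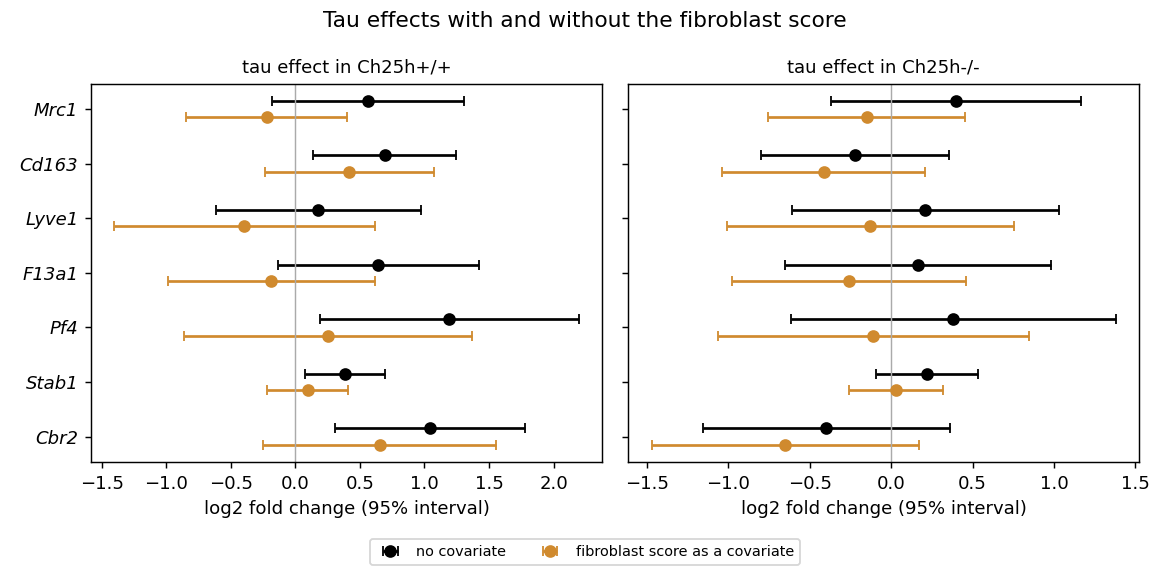
Log2 tau effect (horizontal axis, 95% interval) of each of the 7 genes (vertical axis) in Ch25h+/+ and Ch25h-/-, without a covariate (black) and with the fibroblast score as a covariate (orange). In Ch25h+/+ 7 of 7 estimates are above 0 without it and 4 of 7 with it, and every interval with the covariate spans 0. The fibroblast genes are themselves mostly higher with tau, so this fit cannot separate their score from tau.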

How the data were processed

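RNA was purified on spin columns and sequenced after library preparation with the SMARTer mRNA kit, per the labels' protocols. The deposited file holds raw counts per gene and library, which the authors left without normalization. Reads were aligned with STAR 2.7 to GRCm38 (mm10), per the submitters' processing notes. The counter, its annotation and its use of strand are not given in the sources used here. Of the symbols, 98.7% were in GENCODE M21. The members and gene lists were chosen with earlier results of these data known. Genes were filtered with filterByExpr, which left 17736, scaled by TMM and fitted with edgeR 4.0.16 in R 4.3.3, as 1 fit of 16 libraries with a mean per group. The quasi-likelihood test was two-sided, for 7 comparisons, with Benjamini-Hochberg adjustment over all genes tested and a threshold of 0.05. Intervals of 95% came from the standard errors of the fit. The alternatives were DESeq2 1.42.0, limma-voom with quality weights (limma 3.58.1), 1 surrogate variable (sva 3.50.0), RLE scaling, other filters, library class (CT010467.1 at or above 1000 CPM of the total count) and 4 marker scores as covariates, fits of 8 libraries, and leaving out each library. List genes were named as up to 3 with the smallest p past the threshold, or up to 2 of the highest CPM where none passed. Il10ra, Csf2rb, the group levels of Ms4a7 and Siglec1, and the platelet, monocyte and lymphatic genes were chosen after their values were seen. Genes most like the members needed a mean log2 CPM of at least 0. No libraries of a group agreed within sampling noise (chi-square per degree of freedom of at least 9.95). The tests were checked on simulated counts. Reads without molecular identifiers are not independent molecules, so counting error is a lower limit. Some single genes of the lists are not reported here by name.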

Additional observations from a re-analysis of the deposited data

Results flagged for a closer look

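Of 28 sets of 4 libraries (7 genes in 4 groups), 2 held a library whose gap to the nearest other, as a share of the range of the set, was above the 95% critical value of the Dixon test, which chance exceeds in about 1 set in 20. Lyve1 in Ch25h+/+ Tau- replicate 3 was at 1.25 CPM where the other 3 libraries lay at 0.711 to 0.785 CPM, a gap of 0.862 of the range. Cbr2 in Ch25h+/+ Tau+ replicate 4 was at 2.38 CPM where the other 3 lay at 1.53 to 1.60 CPM, a gap of 0.920 of the range, and the other 3 still lay above every Ch25h+/+ Tau- library.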

How the results depend on the processing

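No paired analysis was possible because the labels number no replicates, and the numbers used here only name libraries. For the 7 members in 5 comparisons (tau and Ch25h loss within each group, and the interaction), with Stab1 for mean Ch25h loss and Stab1 and Pf4 for the mean tau effect, settings other than leaving out a library gave values of which 387 kept direction and side of the threshold, 29 reversed and 4 passed the threshold. The 4 were Stab1 for mean Ch25h loss, where the number of members past the threshold was 1 in place of 0 without the filter (log2 -0.28, adjusted p = 0.0469 by edgeR), with the blood score (-0.28, 0.0235 by edgeR), by limma-voom (-0.30, 0.0367) and by DESeq2 (-0.27, 0.0471), and from 0 to 1 without each library, being 1 without replicate 1 of Ch25h-/- Tau- or of Ch25h-/- Tau+. With the library class, Stab1 there was 0.063. The cause was not tested. Log2 values that reversed with the fibroblast score were, for tau in Ch25h+/+, Mrc1 -0.22, Lyve1 -0.39 and F13a1 -0.19, for tau in Ch25h-/-, Mrc1 -0.15, Lyve1 -0.13, F13a1 -0.26 and Pf4 -0.11, for loss in Tau-, Mrc1 0.051 and Lyve1 0.021, for loss in Tau+, Mrc1 0.12 and Pf4 0.25, and for the interaction, Mrc1 0.072. With the microglia score they were Lyve1 -0.28 (tau in Ch25h+/+), F13a1 -0.014 (tau in Ch25h-/-), Lyve1 0.19 and F13a1 0.15 (loss in Tau-) and Pf4 0.62 (loss in Tau+). With the library class they were F13a1 -0.036 (tau in Ch25h-/-), Mrc1 0.31, Lyve1 0.081, F13a1 0.52 and Stab1 0.20 (loss in Tau-) and Mrc1 0.0028 (loss in Tau+). By limma-voom Lyve1 was -0.010 (tau in Ch25h+/+) and Mrc1 0.095 (interaction). Lyve1 for loss in Tau+ was -0.00310 with RLE, -0.00773 without the filter and -0.00376 by DESeq2. Against 3 microglia genes the tau change in Ch25h+/+ was 0.0018 for Cd163, -0.49 for Lyve1, -0.035 for F13a1, 0.15 for Pf4, -0.19 for Stab1 and 0.16 for Cbr2, and for loss in Tau+ -0.074 for Cd163, 0.11 for Stab1 and -0.17 for Cbr2. With a pseudocount of 0.1, Cbr2 against the 13 genes was 0.80 for tau in Ch25h+/+. Leaving out each library reversed 33 values, left 573 the same, and gave, for tau in Ch25h+/+, Lyve1 -0.025 to 0.45, for tau in Ch25h-/-, Cbr2 -0.64 to 0.032 and F13a1 -0.042 to 0.62, for loss in Tau-, F13a1 -0.56 to 0.17, Lyve1 -0.30 to 0.19 and Mrc1 -0.47 to 0.24, for loss in Tau+, Lyve1 -0.28 to 0.20 and Pf4 -0.55 to 0.016, and for the interaction, Lyve1 -0.24 to 0.28 and Mrc1 -0.57 to 0.14. A mean of at least 50 counts left Mrc1 and Stab1 of the 7. Lyve1, Pf4 and Cbr2 had a mean of 18.2 to 23.9 counts per library.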
